A study of Mus musculus with 3 samples.

Results

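The voltage-gated sodium and calcium channel genes were taken as the mm10 GENCODE protein-coding genes whose symbols are Scn followed by digits and a or b, or start with Cacna, Cacnb or Cacng and a digit. The epithelial sodium channel genes, whose symbols start with Scnn, were left out. This rule found 40 of 21938 protein-coding genes, 14 for sodium channels and 26 for calcium channels. The rule read gene symbols alone.

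The data were 3 chromatin immunoprecipitation sequencing (ChIP-seq) libraries from F123 mouse embryonic stem cells (mESCs), a male line from an F1 cross of S129/Jae and Cast mice. There was 1 library with antibodies to H3K27me3, 1 with an antibody to RNA polymerase II that carries phosphate on serine 5 of its tail repeats (Pol2-S5p), and 1 with an antibody to the form with phosphate on serine 7 (Pol2-S7p). All 3 came from the same untreated line, grown on inactivated mouse fibroblasts and then without them before harvest, so there was no treated group and no replicate of any mark. Each library was available as a list of enriched regions and not as reads, so the depth was unknown and no test between samples could be made.

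Voltage-gated channels open when the membrane depolarises. Each has a large pore-forming alpha subunit, and smaller subunits carry it to the membrane and tune its gating. Sodium channels start the action potential in neurons, heart and skeletal muscle, and calcium channels turn it into contraction, secretion or transmitter release. H3K27me3 is the histone mark left by Polycomb repressive complex 2, Pol2-S5p is found at promoters of both active and Polycomb-held genes, and Pol2-S7p is the form of polymerase that accompanies productive transcription.

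A gene was called positive for a mark when a 2 kb window centred on its transcription start touched an enriched region of that mark. For genes with several annotated starts, the window with most Pol2-S5p cover was taken. Starts of transcripts not annotated as protein-coding were eligible. The start taken was of that kind at Cacna1f, Cacna1i, Cacna1s, Cacna2d2, Cacna2d4, Cacnb3 and Cacnb4. Active genes had both polymerase forms without H3K27me3, PRCa genes had all 3 marks, and PRCr genes had H3K27me3 and Pol2-S5p without Pol2-S7p. Genes with no mark were called Inactive. The lists held 17342 H3K27me3, 29222 Pol2-S5p and 22320 Pol2-S7p regions. Of 10 markers of embryonic stem cells, 8 were Active and Sox2 and Klf4 were PRCa, so all 10 carried both polymerase forms. Of 10 fibroblast markers none was Active and 4 were Inactive, 1 (Twist1) carried Pol2-S7p, and the part of remaining feeder cells in the channel calls was not tested. Of 10 neuronal markers 2 were Active (Syp and Stmn2) and 8 carried H3K27me3, and all 10 muscle markers carried H3K27me3.

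Most channel genes carried the Polycomb mark at their promoters, and very few had polymerase at an unmarked promoter as active genes do. H3K27me3 touched the window of 29 of 40 channel genes (72.5%, exact 95% interval 56.1 to 85.4), against 37.7% of all protein-coding genes. Pol2-S5p was present at 27 (67.5%, 50.9 to 81.4), against 69.9%, and Pol2-S7p at 14 (35.0%, 20.6 to 51.7), against 60.4%. The share with Pol2-S5p was thus near the background, whereas the intervals for the other marks did not contain theirs. These intervals cover counting error only and treat genes as independent, which neighbouring channel genes are not. With H3K27me3 regions over 10 kb left out, the mark was at 10 channel genes (25%, 12.7 to 41.2), against 15.8% of all protein-coding genes, and that interval contained the background share. With polymerase regions over 10 kb left out, Pol2-S7p was at 9 (22.5%, 10.8 to 38.5), against 25.8%, also within the interval.

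By state, 2 channel genes were Active (5.00%), against 35.9% of all protein-coding genes, and 12 were PRCa (30%, 16.6 to 46.5), against 23.9%. A further 12 were PRCr (30%), against 7.66%, and 5 carried H3K27me3 alone (12.5%), against 6.02%. Of the rest, 8 were Inactive (20%), against 23.5%, and 1 (Cacnb1) had Pol2-S5p only, against 2.46%. Over genes of all lengths, the PRCa and Inactive shares were close to the background, and the PRCr share lay furthest above it. Without H3K27me3 regions over 10 kb, however, the PRCr share was 7.50% (1.57 to 20.4), against 3.02%, within the interval. Shares by gene length are given below. H3K27me3 was present at 22 of 26 calcium channel genes (84.6%, 65.1 to 95.6) and at 7 of 14 sodium channel genes (50.0%, 23.0 to 77.0), and these intervals overlapped. Of the 8 Inactive genes 7 encode sodium channel alpha subunits, and the other is Cacng1.

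**Figure D1:**
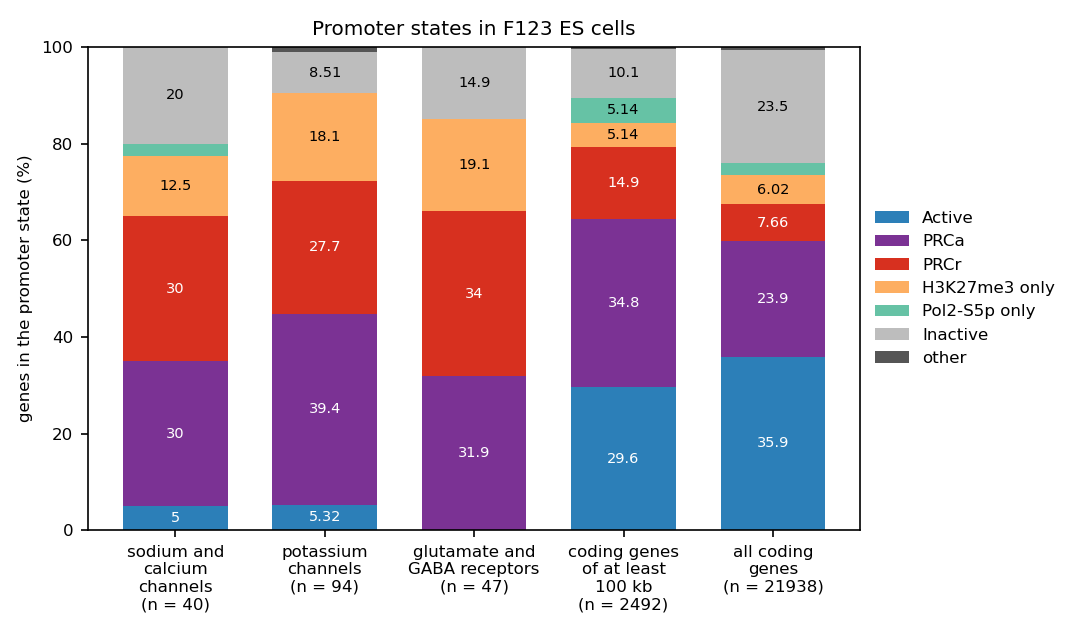
Share of genes in each promoter state (vertical axis, %) for the 40 sodium and calcium channel genes, 94 potassium channel genes, 47 glutamate and GABA receptor genes, 2492 long protein-coding genes (100 kb or more) and all 21938 protein-coding genes. Active promoters made up 5.00% of the sodium and calcium channel genes and 35.9% of all protein-coding genes.

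The channel genes were long, with a median length of 104.7 kb, against 17.4 kb for all protein-coding genes, so they were also set beside the 2492 protein-coding genes that were 100 kb or longer. Among the 20 channel genes of that length, H3K27me3 was at 12 (60%, 36.1 to 80.9), against 54.9% of all long genes. Pol2-S7p was at 9 of these 20 (45%, 23.1 to 68.5), against 64.7% of all long genes, within the interval. Of these 20, 2 were Active (10.0%, 1.23 to 31.7), against 29.6%. The H3K27me3 share of the long channel genes was therefore near that of long genes in general. The interval of their Active share also contained that of long genes. PRCr genes numbered 5 of the 20 (25%, 8.66 to 49.1), against 14.9%, within the interval. Inactive genes numbered 6 (30%, 11.9 to 54.3), against 10.1%, which lay below the interval. All 6 encode sodium channel alpha subunits, most of them neighbours on chromosome 2. Among the 20 shorter channel genes, H3K27me3 was at 17 (85.0%, 62.1 to 96.8), against 35.5% of the 19446 protein-coding genes under 100 kb, and none was Active, against 36.7%. Of these shorter genes 7 were PRCr (35%, 15.4 to 59.2), against 6.74%, and 2 were Inactive (10%, 1.23 to 31.7), against 25.2%. Pol2-S7p was at 5 of them (25%, 8.66 to 49.1), against 59.8%.

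The mark covered whole channel genes in some cases and only the promoter in others. H3K27me3 regions covered a median of 23.8% of the gene body (95% interval of the median 9.38 to 62.2, n = 40), against 0% for all protein-coding genes. Pol2-S5p covered a median of 4.19% (0.624 to 15.8), against 13.2%, which lay within the interval. Pol2-S7p covered 0.601% (0 to 5.32), against 5.37%, just above the interval. Channel genes under 100 kb had a median H3K27me3 cover of 71.8% (27.5 to 100), against 0% for all protein-coding genes under that length. Those of at least 100 kb had 7.45% (0.757 to 23.3), against 1.25% for all protein-coding genes of that length, within the interval. Scn4a, Cacna1s, Cacna1g, Cacna1h, Cacna2d2 and Cacnb3 were covered from end to end, whereas Scn2a, Scn3a, Scn7a and Scn9a had no H3K27me3 at all.

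For H3K27me3 and Pol2-S5p, the intervals for the share of regions over 10 kb behind these calls contained the background. At the 29 H3K27me3-positive channel genes the region at the window had a median width of 21200 bp, against 16800 bp at the 8281 positive protein-coding genes. It was over 10 kb at 19 (65.5%, 45.7 to 82.1), against 58.3%. At the 27 Pol2-S5p-positive channel genes the median width was 5200 bp, against 17600 bp, and 12 (44.4%, 25.5 to 64.7) were over 10 kb, against 57.5%. No intervals are given for the median widths. At the 14 Pol2-S7p-positive channel genes it was 21300 bp, against 20600 bp. The H3K27me3 regions ran from 400 bp at Cacna1f to 194.6 kb at Cacna2d2.

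**Figure D2:**
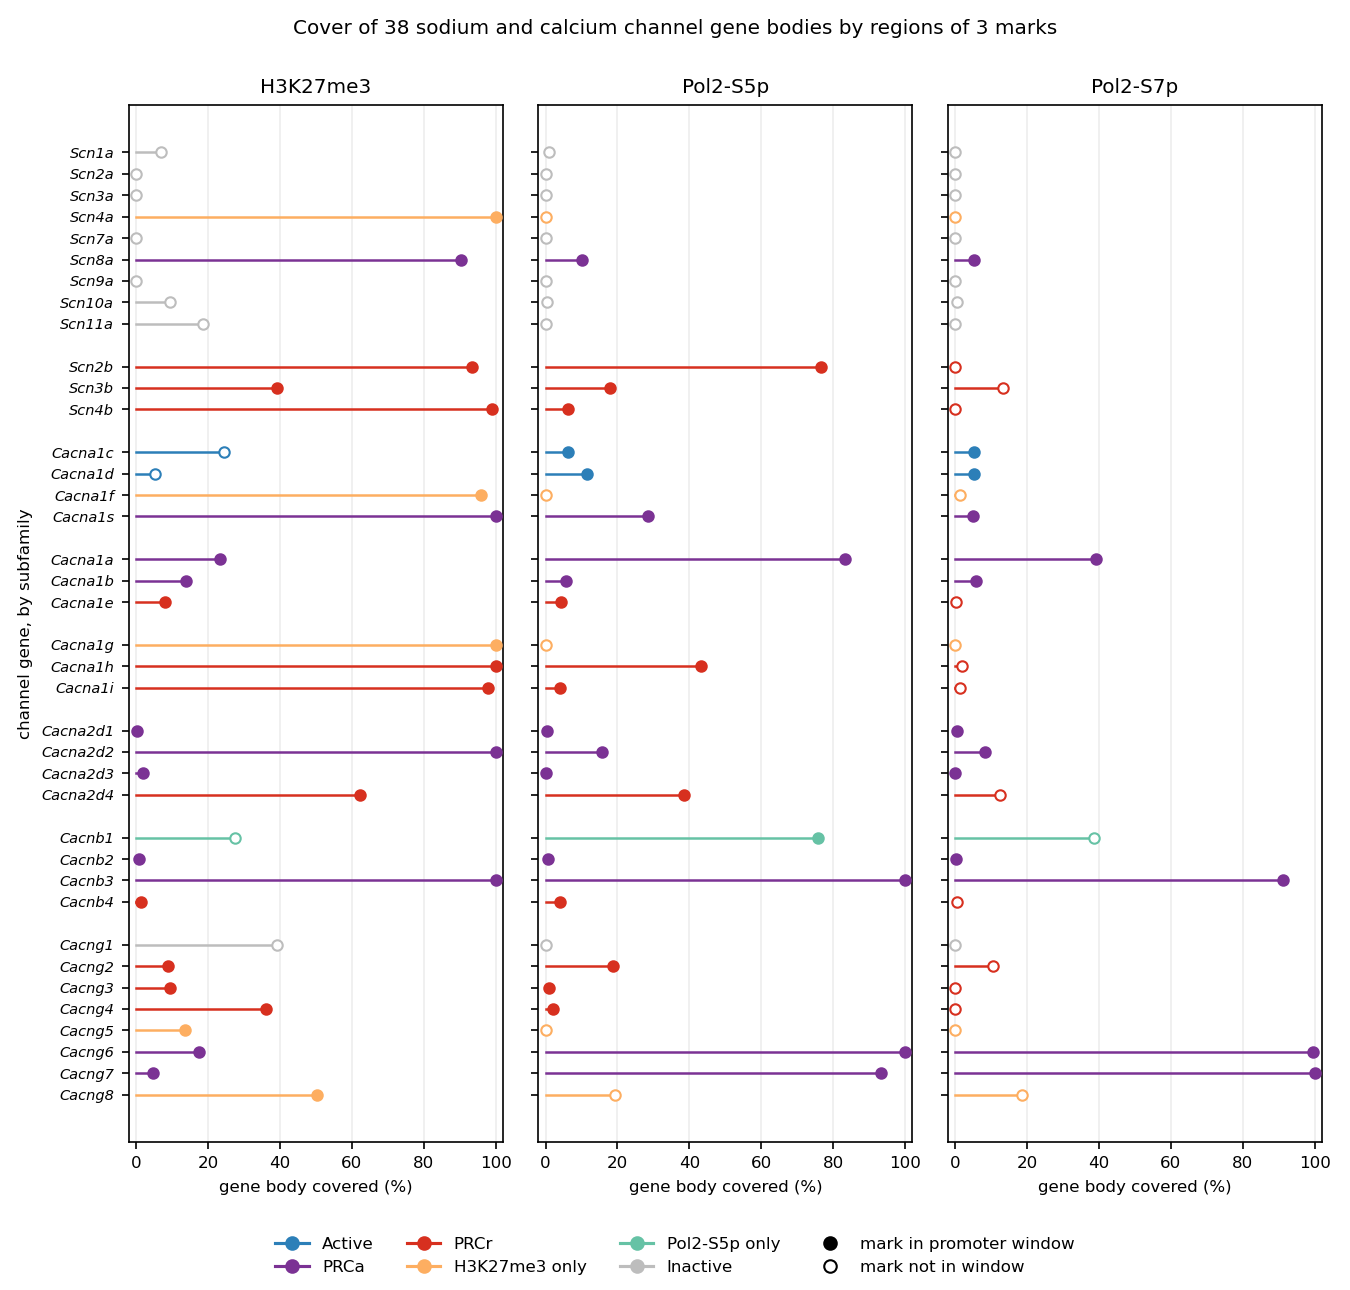
Share of each channel gene body covered by enriched regions (horizontal axis, %) for H3K27me3, Pol2-S5p and Pol2-S7p, with 38 of the 40 genes grouped by subfamily from top to bottom. Colours give the promoter state, and filled points mark genes whose 2 kb promoter window was touched by that mark. Cover by H3K27me3 ran from 0% (Scn2a, Scn3a, Scn7a, Scn9a) to 100% (Scn4a, Cacna1s, Cacna1g, Cacna1h, Cacna2d2, Cacnb3).

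The Inactive sodium channel alpha subunit genes lie on chromosomes 2 and 9. On chromosome 2, Scn3a, Scn2a, Scn1a, Scn9a and Scn7a stand within 1327.8 kb (chr2:65457118-66784914). Scn1a, Scn2a and Scn3a encode the main channels of central neurons, Scn9a a channel of pain-sensing neurons, and Scn7a an atypical channel that senses sodium. All 5 were Inactive. H3K27me3 covered 2.61% of this cluster in 9 regions of 400 to 7600 bp, Pol2-S5p 0.738% and Pol2-S7p 0.557%. No region of any mark lay in the bodies of Scn2a, Scn3a, Scn9a or Scn7a. Scn1a was the exception, with 11.8 kb of H3K27me3 (6.94% of the body) in 3 regions and 1.6 kb of Pol2-S5p in 2. Each Pol2-S5p region of Scn1a was 0.8 kb wide and fell within a H3K27me3 region, 10.6 and 134 kb into the gene. Of the 8 annotated starts of Scn1a, the one 30.8 kb into the gene had H3K27me3 only, and the other 7 had no mark.

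Scn7a lay wholly within a stretch of 432 kb with no region of any mark (chr2:66656800-67088799), which ranked 27 in length among 2055 such stretches on chromosome 2. The cluster holds 3 other protein-coding genes. Galnt3 and Ttc21b were PRCa and Csrnp3 was Inactive, so marked promoters occurred between unmarked channel genes.

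On chromosome 9, Scn10a and Scn11a, which encode sodium channels of peripheral sensory neurons, were Inactive, with H3K27me3 over 9.38% and 18.7% of their bodies and none in their windows. The nearest H3K27me3 region lay 77.7 kb from the start of Scn10a and 2.94 kb from that of Scn11a. Neither window held a polymerase region.

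**Figure D3:**
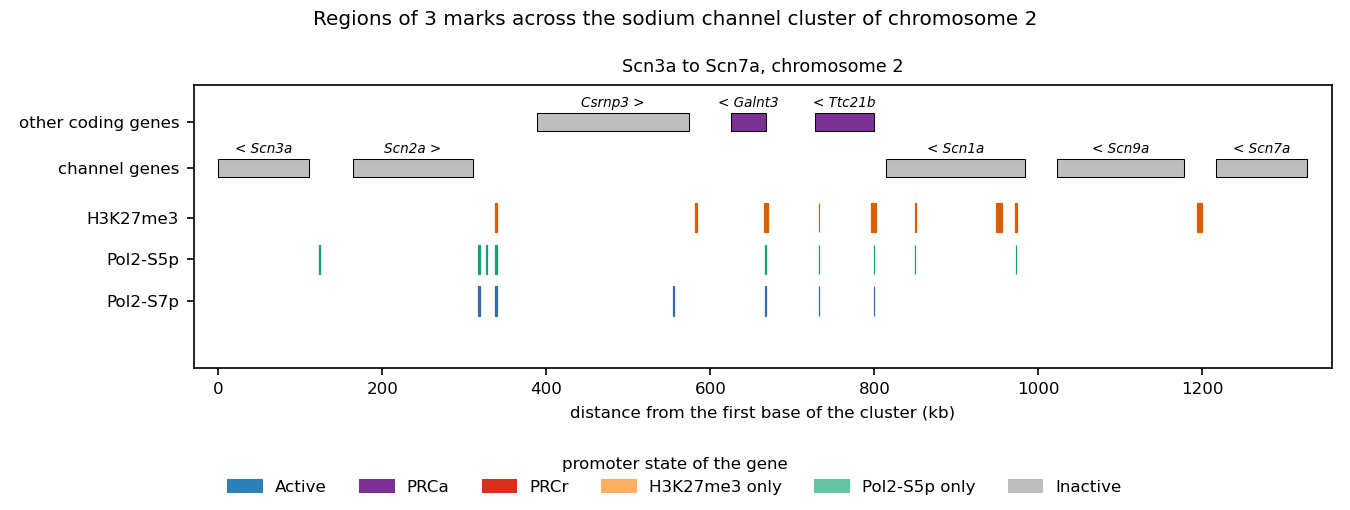
Enriched regions of H3K27me3, Pol2-S5p and Pol2-S7p (bars) along the sodium channel cluster of chromosome 2 (1327.8 kb), with distance from the first base of the cluster in kb on the horizontal axis. Genes are coloured by promoter state, and arrowheads beside the names give the direction of transcription. H3K27me3 covered 2.61% of the cluster, and the bodies of Scn3a, Scn2a, Scn9a and Scn7a held no region.

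Scn8a and Scn4a were marked over most of their length. Scn8a, the channel of the axon initial segment and nodes of Ranvier (chr15:100869858-101045938), was the only PRCa gene of the alpha subunits. H3K27me3 covered 90.5% of its body, and the region at its start was 152.8 kb wide and reached the neighbouring gene Slc4a8. Pol2-S5p and Pol2-S7p stood there in regions of 2000 and 1000 bp, and the score of the Pol2-S7p region was at the 88.3 percentile of its list. The 8 starts in the first 1.56 kb of Scn8a were PRCa, and its 11 internal starts had H3K27me3 only, so polymerase was seen at the 5′ starts alone among annotated starts. Scn4a, the channel of skeletal muscle (chr11:106318592-106353288), had H3K27me3 only, in a region of 90.8 kb that covered the whole gene and touched Cd79b, Gh, Icam2 and Prr29.

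The promoter sequences of Scn8a and Scn2a are shown because these brain channels stood at opposite ends, PRCa and Inactive. Both are RefSeq stretches of 300 bases (GRCm38.p6, plus strand), from 250 bases before to 50 after a start, with CpG dinucleotides in capitals. The Scn8a stretch (chr15:100870395-100870694) held 38 CpGs and 70.0% G and C, and the Scn2a stretch (chr2:65620519-65620818) held 3 CpGs and 33.0% G and C. Each gene also has an internal RefSeq stretch, not printed here, and these differed less. That of Scn8a, 66.4 kb into the gene, had H3K27me3 only, with 12 CpGs and 53.3% G and C. That of Scn2a, 47.9 kb into the gene, was Inactive, with 9 CpGs and 47.7% G and C.
Scn8a: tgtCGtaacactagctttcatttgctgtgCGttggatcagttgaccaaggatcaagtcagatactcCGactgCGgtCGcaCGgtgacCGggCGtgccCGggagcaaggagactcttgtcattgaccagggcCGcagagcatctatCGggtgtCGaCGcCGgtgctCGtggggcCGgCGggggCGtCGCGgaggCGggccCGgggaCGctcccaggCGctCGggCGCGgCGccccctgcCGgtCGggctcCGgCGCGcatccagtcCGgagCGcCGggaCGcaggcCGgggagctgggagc
Scn2a: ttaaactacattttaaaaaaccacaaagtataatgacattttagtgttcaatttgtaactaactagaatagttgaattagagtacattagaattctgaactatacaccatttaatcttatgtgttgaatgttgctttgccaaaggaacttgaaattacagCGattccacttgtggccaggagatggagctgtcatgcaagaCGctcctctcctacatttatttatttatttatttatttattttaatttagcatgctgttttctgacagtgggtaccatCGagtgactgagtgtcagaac

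The sodium channel beta subunits are cell adhesion proteins with a single membrane span that tune the gating of the alpha subunit. Scn2b, Scn3b and Scn4b carried H3K27me3 and Pol2-S5p and were PRCr. Scn2b and Scn4b are neighbours on chromosome 9, and 1 H3K27me3 region of 35.4 kb spanned both and covered 97.3% of the stretch from the start of Scn2b to the end of Scn4b. That region covered only 182 bp of the Scn2b window, and the Scn2b call changed with a narrower window or with a cover minimum of 1000 bp. Scn3b carried narrow regions, 3200 bp of H3K27me3 and 1800 bp of Pol2-S5p. Pol2-S7p touched none of their windows.

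The Cav1 genes encode the L-type calcium channels. They included the only Active genes of the family, Cacna1c, the channel of heart, smooth muscle and neurons, and Cacna1d, the channel of hair cells, endocrine cells and the sinoatrial node. In both, however, the start that gave the Active call lay inside another gene on the opposite strand. The 5′ end of Cacna1c overlaps Dcp1b and that of Cacna1d overlaps Dcp1a, which encode mRNA decapping factors. Dcp1b starts 21.2 kb inside Cacna1c and runs out past its 5′ end, and Dcp1a starts 11.9 kb inside Cacna1d and does the same. Both were Active, and their bodies were covered by Pol2-S5p over 81.5% (Dcp1b) and 97.9% (Dcp1a) and by Pol2-S7p over 94.8% (Dcp1b) and 100% (Dcp1a).

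The polymerase regions at the Cacna1c start were 28.6 kb (Pol2-S5p) and 30.8 kb (Pol2-S7p) wide, and both ended 21.4 kb into Cacna1c, next to the first base of Dcp1b. At Cacna1d the Pol2-S7p region was 62.8 kb wide and ended 12.3 kb into the gene, next to the first base of Dcp1a. The ChIP-seq signal carries no strand, so polymerase on Cacna1c and Cacna1d cannot be told apart there from that on the Dcp1 genes. With polymerase regions over 10 kb left out, neither gene was Active.

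Further into the same genes H3K27me3 was present. Cacna1c has 4 starts around 88 kb from its 5′ end, used by 12 annotated protein-coding transcripts, and all 4 were PRCr, with H3K27me3 over the whole window in a region of 38 kb and a Pol2-S5p region of 3.2 kb. Cacna1d has 3 starts around 138 kb, and all were PRCa, with regions of 3.6 kb for H3K27me3, 3.8 kb for Pol2-S5p and 1 kb for Pol2-S7p. The score of that H3K27me3 region was 23.6, against 8.23 for the median H3K27me3 region of the list, in units the authors did not state. When any annotated start could make a gene positive, both genes were PRCa and no channel gene was Active. That setting can only add marks to a gene, and H3K27me3 was then at 33 channel genes, against 29 as reported. No share over all protein-coding genes is given for it, so the lack of Active genes there is not read as particular to these genes.

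The sequences of these promoters are shown because the starts with the same gene name differed in both state and sequence. All are RefSeq stretches of 300 bases on the minus strand (GRCm38.p6), with CpGs in capitals. The 5′ stretches held 3 CpGs in Cacna1c (chr6:119196360-119196659) and 4 in Cacna1d (chr14:30491107-30491406) and carried polymerase without H3K27me3. The downstream stretches held 57 in Cacna1c (chr6:119108446-119108745) and 63 in Cacna1d (chr14:30353437-30353736), with 81.3% and 87.3% G and C.
Cacna1c 5′ start, Active: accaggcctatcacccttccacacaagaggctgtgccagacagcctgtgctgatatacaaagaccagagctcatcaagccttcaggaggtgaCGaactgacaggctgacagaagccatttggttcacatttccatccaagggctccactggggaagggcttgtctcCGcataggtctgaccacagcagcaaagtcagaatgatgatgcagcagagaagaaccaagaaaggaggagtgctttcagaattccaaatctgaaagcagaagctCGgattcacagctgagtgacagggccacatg
Cacna1c start at 87.9 kb, PRCr: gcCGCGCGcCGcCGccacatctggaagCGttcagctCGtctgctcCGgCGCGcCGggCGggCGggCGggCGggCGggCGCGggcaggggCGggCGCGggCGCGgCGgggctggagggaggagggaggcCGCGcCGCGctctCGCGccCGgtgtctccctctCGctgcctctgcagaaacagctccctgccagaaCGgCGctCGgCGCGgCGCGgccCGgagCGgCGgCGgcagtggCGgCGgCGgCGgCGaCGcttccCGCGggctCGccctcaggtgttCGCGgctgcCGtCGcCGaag
Cacna1d 5′ start, Active: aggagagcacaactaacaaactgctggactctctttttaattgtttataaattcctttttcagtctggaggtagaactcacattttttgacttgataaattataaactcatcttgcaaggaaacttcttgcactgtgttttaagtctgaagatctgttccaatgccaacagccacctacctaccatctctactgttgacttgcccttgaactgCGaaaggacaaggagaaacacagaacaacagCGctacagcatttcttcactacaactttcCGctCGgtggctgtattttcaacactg
Cacna1d start at 138 kb, PRCa: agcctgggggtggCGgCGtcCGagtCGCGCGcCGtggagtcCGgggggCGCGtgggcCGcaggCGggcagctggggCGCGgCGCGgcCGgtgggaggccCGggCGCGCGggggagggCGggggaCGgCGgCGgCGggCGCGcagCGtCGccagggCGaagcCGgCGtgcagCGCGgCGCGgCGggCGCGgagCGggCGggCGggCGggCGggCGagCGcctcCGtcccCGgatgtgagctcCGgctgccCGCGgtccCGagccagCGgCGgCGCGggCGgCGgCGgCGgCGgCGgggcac

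**Figure D4:**
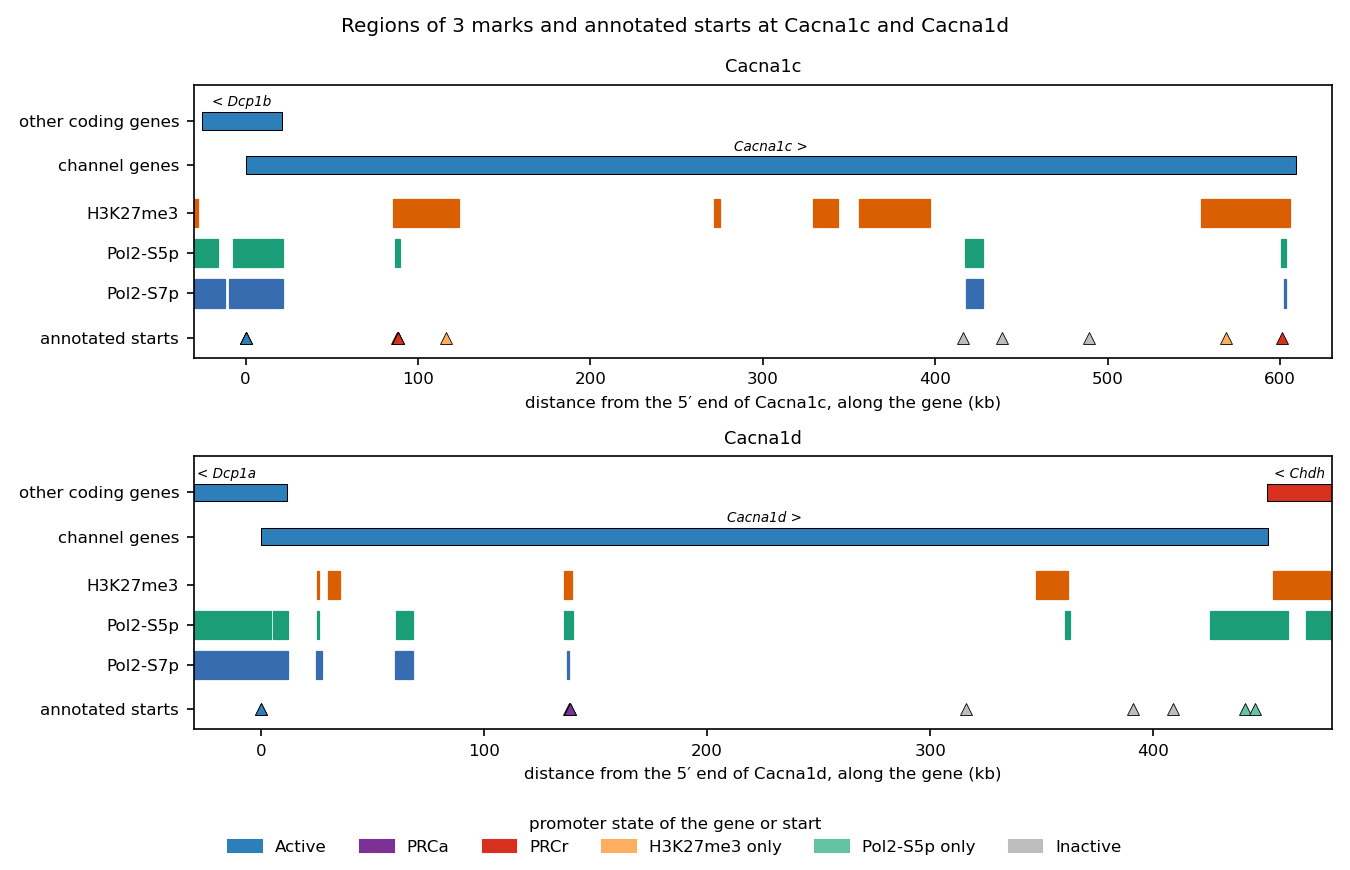
Enriched regions of the 3 marks (bars) and annotated starts (triangles, coloured by state) along Cacna1c (upper panel) and Cacna1d (lower panel), with distance from the 5′ end in kb on the horizontal axis. The Active 5′ starts lie where Dcp1b and Dcp1a overlap the channel genes on the opposite strand, and the starts around 88 kb (Cacna1c) and 138 kb (Cacna1d) lie where a H3K27me3 region and a narrow Pol2-S5p region coincide.

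The other Cav1 genes were Polycomb-marked over all or most of their length. Cacna1s, the voltage sensor of skeletal muscle (chr1:136052750-136119822), was covered from end to end by a H3K27me3 region of 142.2 kb. Its PRCa call came from an internal start 64.5 kb into the gene, under a Pol2-S7p region of 15.6 kb that also touched Kif21b, and its 3 starts at the 5′ end were PRCr. Cacna1f, the channel of photoreceptor synapses on the X chromosome, had H3K27me3 over 96.0% of its body, but its window was touched only by a region of 400 bp whose score was at the 1.06 percentile. Its call of H3K27me3 only was lost with a 1 kb window, and with a 4 kb window it was PRCa.

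The Cav2 genes encode the presynaptic calcium channels that trigger transmitter release, of P/Q type (Cacna1a), N type (Cacna1b) and R type (Cacna1e). All 3 carried H3K27me3 and Pol2-S5p, and Cacna1a and Cacna1b were PRCa. The H3K27me3 regions at the starts used here were narrow, 4200 bp at Cacna1a and 4000 bp at Cacna1b, with scores at the 91.0 and 80.3 percentiles. Inside Cacna1a there were 3 wider H3K27me3 regions, of 16.8, 10.8 and 26.8 kb. The start of Cacna1b used here lay 155.6 kb into the gene, and at its 5′ end the H3K27me3 region was 11 kb wide. Cacna1a (chr8:84388440-84640246) had Pol2-S5p over 83.3% and Pol2-S7p over 39.2% of its 251.8 kb. Much of the Pol2-S5p cover came from 1 region of 245.2 kb that ran out past the 3′ end of the gene, with 139.4 kb of it inside. A Pol2-S7p region of 76.2 kb also ran past that end, with 10.6 kb inside. The Pol2-S7p region at its start was 18.2 kb wide and touched no other protein-coding gene. Its 3 protein-coding starts, 26.9 to 27.3 kb from the annotated end, were all PRCa. Cacna1b had 4 PRCa starts, 3 of them within 0.105 kb of its 5′ end. Cacna1e was PRCr at the starts 158.1 and 158.6 kb into the gene, whereas the start of its longest transcript was Inactive.

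The Cav3 genes encode the low-voltage T-type channels, which support rhythmic firing. All 3 were covered over nearly their full length, with H3K27me3 over 100% of Cacna1g, 100% of Cacna1h and 97.9% of Cacna1i, in regions of 97400, 79600 and 123000 bp. Cacna1g had H3K27me3 only, and Cacna1h and Cacna1i were PRCr. The 5′ starts of Cacna1h, 3 in number, were PRCa, with a Pol2-S5p region of 2 kb and a Pol2-S7p region of 1.8 kb, and the longer Pol2-S5p cover at an internal start 53.1 kb into the gene gave the PRCr call.

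The alpha2delta subunits sit outside the membrane and raise the number of calcium channels at the surface, and Cacna2d1 is the target of gabapentin. All 4 genes carried H3K27me3 and Pol2-S5p, and Cacna2d1, Cacna2d2 and Cacna2d3 were PRCa. Cacna2d1 and Cacna2d3 were long genes with little cover. Of the 439.8 kb of Cacna2d1, H3K27me3 covered 0.252%, Pol2-S5p 0.525% and Pol2-S7p 0.661%, and of the 816.9 kb of Cacna2d3 they covered 1.92%, 0.228% and 0.130%. At their starts the Pol2-S7p regions were 800 bp and 1600 bp wide, and the H3K27me3 region at Cacna2d1, 2800 bp wide, had a score at the 95.5 percentile. Each gene also held a site of polymerase away from the promoter. In Cacna2d1 it was a Pol2-S7p region of 2.4 kb, 136.3 kb into the gene, with Pol2-S5p in 1.2 kb of it, and in Cacna2d3 narrow regions of all 3 marks, 0.4 to 0.6 kb wide, lay 28.5 to 29.1 kb into the gene. Cacna2d2 (chr9:107399612-107529343) was the opposite, lying wholly within a H3K27me3 region of 194.6 kb, the widest at the promoter window of any channel gene. Its 3 starts within 0.457 kb of the 5′ end were PRCa under polymerase regions covering 1200 bp of the window, and the start used here, 127 kb into the gene, lay under a Pol2-S5p region of 154.6 kb that touched 14 other protein-coding genes. Cacna2d4 was PRCr at an internal start 94.2 kb into the gene, whose window overlapped that of Lrtm2, and its 5′ starts had H3K27me3 only.

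The beta subunits are cytoplasmic partners that fold and traffic the calcium channel pore. Pol2-S5p was at all 4 genes. Cacnb2 and Cacnb3 were PRCa, Cacnb4 was PRCr and Cacnb1 had Pol2-S5p only. Cacnb2, a gene of 384.8 kb, had regions of 4000 bp (H3K27me3), 1600 bp (Pol2-S5p) and 1200 bp (Pol2-S7p), and 13 of its 16 starts were Inactive. Cacnb3, the shortest of them at 13.7 kb, was covered by H3K27me3 and Pol2-S5p from end to end and by Pol2-S7p over 91.2%, and its Pol2-S7p region of 24.4 kb also touched Adcy6. The 5′ starts of Cacnb1 were PRCa. The Pol2-S5p region of 12 kb at its start 4.66 kb into the gene gave the other call, and H3K27me3 lay 1028 bp from that start, just outside the window.

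Of the gamma subunit genes, Cacng1 encodes the gamma subunit of the skeletal muscle calcium channel, and Cacng2, Cacng3, Cacng4 and Cacng8 encode the TARP proteins that carry AMPA receptors to synapses. H3K27me3 was at 7 of 8, all but Cacng1. Cacng7, Cacng8 and Cacng6 stand in that order within 102.7 kb on chromosome 7 (chr7:3332955-3435667). Cacng7 and Cacng6 were PRCa and Cacng8, between them, had H3K27me3 only. In this cluster Pol2-S5p covered 61.6%, Pol2-S7p 63.7% and H3K27me3 24.8%. A Pol2-S7p region of 43.6 kb covered Cacng7 from end to end. Cacng5, Cacng4 and Cacng1 stand within 211.8 kb on chromosome 11 (chr11:107703218-107915055), where H3K27me3 covered 28.1%, Pol2-S5p 1.13% and Pol2-S7p none. There Cacng5 had H3K27me3 only, Cacng4 was PRCr and Cacng1 was Inactive, although H3K27me3 covered 39.1% of its body, with the nearest region 5.52 kb from the start. Cacng2 and Cacng3, which stand alone, were PRCr. Cacng2 had the widest H3K27me3 region of the gamma genes, 89 kb, of which 2.83 kb lay in the gene, and the Pol2-S5p region at its start was 600 bp wide.

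Some calls rested on regions shared with neighbouring genes. Of the 14 Pol2-S7p-positive channel genes, 8 had a region that also touched another protein-coding gene (among them Cacna1c, Cacna1d, Cacna1s, Cacna2d2, Cacnb3, Cacng6 and Cacng7). The regions at the other 6 touched none, and were 1 kb wide at Scn8a, 18.2 kb at Cacna1a, 7.8 kb at Cacna1b, 0.8 kb at Cacna2d1, 1.6 kb at Cacna2d3 and 1.2 kb at Cacnb2. For Pol2-S5p 10 of 27 channel genes, and for H3K27me3 14 of 29, had a region that touched another protein-coding gene. No such shares over all positive protein-coding genes are given, so these counts are not read as particular to the channel genes. Which gene the polymerase in a shared region transcribed was not tested.

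The promoter call depended on the annotated start in many channel genes. The 40 genes had 238 annotated starts, 36 genes had more than 1, and in 21 genes the starts fell into more than 1 state. Shares over all protein-coding genes are not given for these counts, so they are not read as particular to the channel genes. Cacna1c, Cacna1d and Cacna1a each had starts in 4 states. At the start of the longest transcript, 35 of 40 genes had the same state as reported here, and Cacna1s, Cacna1e, Cacna1h, Cacna2d4 and Cacnb1 had another. With H3K27me3 regions over 10 kb left out, the mark was at the windows of 10 genes, among them Cacna1a, Cacna1b, Cacna2d1, Cacnb2 and Cacnb4.

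CpG content, which the choice of genes did not use, varied with the promoter state. CpG content is given as the number of CpGs in the 2 kb window over the number its C and G content would give. The median was 0.395 over the 40 channel genes, against 0.401 over all protein-coding genes. It was 0.588 for the 12 PRCa channel genes, against 0.5996 for all PRCa genes, and 0.552 for the 12 PRCr channel genes, against 0.483. The 5 channel genes with H3K27me3 only had a median of 0.273. The 8 Inactive channel genes had 0.333, with a range of 0.151 (Scn11a) to 0.404 (Scn10a), against 0.142 for all Inactive genes. The Active starts of Cacna1c (0.289) and Cacna1d (0.311) lay below the median of 0.565 for all Active genes. The highest values were 0.855 for Scn8a, 0.821 for Cacna1a, 0.815 for Cacna2d1 and 0.814 for Cacna2d3, all of them PRCa, and the lowest of the PRCa genes was 0.185 for Cacna1s, whose window lay at an internal start. These values describe the windows, and no test was made across genes.

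**Figure D5:**
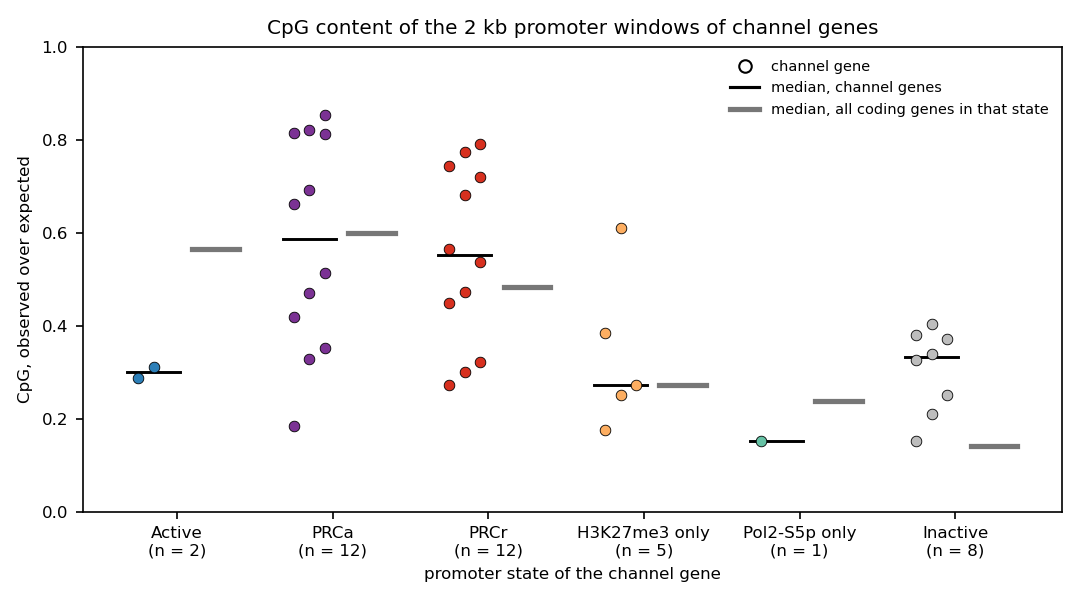
Observed over expected CpG content of the 2 kb promoter window (vertical axis) of each of the 40 channel genes (points), by promoter state. Black bars give the median of the channel genes and grey bars that of all protein-coding genes in the same state. The 12 PRCa channel genes ran from 0.185 to 0.855 and the 8 Inactive ones from 0.151 to 0.404.

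Several channel genes held letters that match the element of REST, the repressor that keeps neuronal genes silent outside neurons. The core of this element (RE1) was searched on both strands as CAGCACC, any 2 bases, then GGACAG, with no mismatch. It was in the 2 kb windows of 2 of 40 channel genes, Scn2a and Scn3b (5.00%), against 0.237% of the windows of all protein-coding genes. Within the channel genes and 1 kb on each side there were 8 matches in 7 genes, 1.29 per Mb, against 0.234 per Mb over the 21 chromosomes, which held 620. These 8 include the window matches of Scn2a and Scn3b, so the counts are not separate. The chromosomes include sequence outside genes, and no rate over other genes is given. No test was made of either difference. The genes were Scn2a, Scn3b, Scn10a with 2, Cacna1a, Cacna1b, Cacna1h and Cacna2d3. A match is a description of the letters and not a bound site, and REST itself was not measured. Rest was Active and Rcor1, its corepressor, was PRCa.

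Of the 8 matches, 4 lay within a region of some mark and 4 in none. The match of Scn3b lay in H3K27me3 and Pol2-S5p regions, that of Cacna1h in a H3K27me3 region, and that of Cacna1a in a Pol2-S5p region. The sequences printed are those of the 4 outside any region and of the 1 within all 3 marks. That of Scn2a (chr2:65619963-65619983, plus strand) lay at -0.805 kb from the first base of the gene, that is upstream of it, and the nearest H3K27me3 region was 175 kb away and the nearest Pol2-S5p region 39.4 kb. That of Cacna1b (chr2:24762082-24762102, plus strand), 1.05 kb into the gene, lay within regions of all 3 marks. Those of Scn10a (chr9:119664300-119664320, plus strand, and chr9:119706899-119706919, minus strand) and Cacna2d3 (chr14:29657204-29657224, minus strand) lay inside the genes, at least 21.9 kb from any region. The core letters are in capitals.
Scn2a: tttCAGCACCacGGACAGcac
Cacna1b: cgtCAGCACCacGGACAGctg
Scn10a, plus strand: gttCAGCACCagGGACAGagc
Scn10a, minus strand: gttCAGCACCacGGACAGagc
Cacna2d3: gttCAGCACCaaGGACAGcaa

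Other genes of excitable cells were set beside the channel genes. H3K27me3 was at 29 of 40 sodium and calcium channel genes (72.5%), against 80 of 94 potassium channel genes (85.1%, 76.3 to 91.6) and 40 of 47 glutamate and GABA receptor genes (85.1%, 71.7 to 93.8). The intervals of these shares overlapped. Active promoters numbered 2 of 40 in the sodium and calcium channels, against 5 of 94 (5.32%) and 0 of 47, which allows a share of up to 7.55% (exact 95% limit). Inactive promoters made up 20% of the sodium and calcium channel genes (9.05 to 35.6), against 8.51% and 14.9%, and in the sodium and calcium channels 7 of the 8 were alpha subunit genes.

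A list of 40 related genes was also counted. It included 7 genes of sodium channel partners, 9 of calcium channel partners, 6 of calcium release channels (Ryr and Itpr), 13 of the wider channel superfamily (Nalcn and its partners, Catsper, Tpcn and Hcn), and Rest and Rcor1. H3K27me3 was at 31 of 40 (77.5%, 61.5 to 89.2), against 37.7% of all protein-coding genes, with 8 Active, 19 PRCa, 9 PRCr, 3 with H3K27me3 only and 1 Inactive (Catsper3). The Active ones included the inositol trisphosphate receptor gene Itpr1, Ank3, which anchors sodium channels at the axon initial segment, Catsper2, Tpcn2 and Rest. All 9 genes of the calcium channel partners (the Stac and RGK genes, Rims1 and Rimbp2) carried H3K27me3 and Pol2-S5p.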

How the data were processed

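Chromatin from F123 mESCs was profiled with 1 library per mark and no replicates. The authors mapped 75 bp reads with Bowtie2 2.3.4.3 to mm10 with variant bases masked, and called enriched regions on each library with the BCP peak finder at default settings. The deposited lists hold positions, a region width in bp (end minus start in all 68884 regions, in steps of 200 bp) and a score whose unit is not given in the sources used here. The deposited score served for percentiles within a list and for the setting with regions above the median score. At Cacna1d the score of a region was also set beside that of the median H3K27me3 region. Peak calling merges nearby signal into wide regions, so a window inside one counts as positive whatever the local signal. No read counts are held, so the depth is unknown.

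Promoters were called as touched by at least 1 bp of a region, with GENCODE M21 genes on 21 chromosomes. Gene bodies ran from the first to the last annotated base. Shares carry exact Clopper-Pearson and medians order-statistic binomial 95% intervals, for counting error only. With no replicates no test between samples was run. The functions were tested on simulated regions. Python 3.11.15, NumPy 2.4.6, SciPy 1.17.1 and Matplotlib 3.10.9 were used.

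Promoter stretches were available for 30 of 40 genes in the RefSeq table (GRCm38.p6). Those without included Cacna1a, Cacna1g, Cacna1h, Cacna2d4, Cacng1, Cacng4, Scn3a and Scn3b. Some genes enter the counts but are not reported here by name. No region ended past a chromosome of GRCm38.

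The channel genes and all lists were chosen with earlier results of these data known. Values are given mainly for genes with Pol2-S7p, genes without H3K27me3, the gene of each subfamily in the widest H3K27me3 region, and genes whose starts differ in state. Not every region width, score and body cover of these genes is printed. The alternatives tried were the longest transcript's start, any start, windows of 1 and 4 kb, a cover of at least 1000 bp, regions above the median score, regions over 10 kb left out, overlapping windows left out, and bodies from 2 kb after the start.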

Additional observations from a re-analysis of the deposited data

How the results depend on the processing

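Over the alternatives, 61 of 81 values stayed within 1.5 times the reported count or within the interval of the reported median. With H3K27me3 regions over 10 kb left out, 10 channel genes carried H3K27me3 (25%, 12.7 to 41.2), against 15.8% of all protein-coding genes in that setting, and 29 as reported. There were 9 Active (22.5%, against 49.4%), 5 PRCa (12.5%, against 10.4%), 3 PRCr (7.50%, 1.57 to 20.4, against 3.02%) and 2 with H3K27me3 only (5.00%, against 2.34%), so the intervals of the H3K27me3 and PRCr shares contained the background. With polymerase regions over 10 kb left out, Pol2-S7p was at 9 (22.5%, 10.8 to 38.5, against 25.8%), no gene was Active (0, exact upper limit 8.81%, against 9.89%) and 11 had H3K27me3 only (27.5%, 14.6 to 43.9, against 18.8%), so the Pol2-S7p and H3K27me3-only shares were near the background. When regions at or below the median score were left out, Pol2-S5p was at 14 (35.0%, against 44.7%) and Pol2-S7p at 7 (17.5%, against 36.4%), and the states were 1 Active (2.5%, against 22.4%), 4 PRCa (10.0%, against 8.57%), 7 PRCr (17.5%, against 5.34%), 9 with H3K27me3 only (22.5%, against 9.46%) and 15 Inactive (37.5%, against 40.4%). The PRCa and Inactive shares there were near the background. H3K27me3 was at 22 genes in that setting (55%, 38.5 to 70.7), against 24.9%. With polymerase regions over 10 kb left out, H3K27me3 was at 32 (80%, 64.4 to 90.9), against 39.6%. When any annotated start could make a gene positive, which can only add marks, 0 were Active, and no share over all protein-coding genes is given. Without these lower-scored regions the median body cover was 8.04% for H3K27me3 and 0% for Pol2-S5p, and with regions over 10 kb left out 0.0367% and 0.582%. The cause was not tested beyond the fewer regions that these settings hold by construction. The state of 9 of 40 genes was the same in every setting (Scn2a, Scn3a, Scn7a, Scn9a, Scn10a, Scn11a, Cacng1, Cacng3 and Cacng8). All of these but Cacng3 and Cacng8 were Inactive. A gene with no mark cannot change state when regions are left out, the window is narrowed or a cover minimum is set. No share over all protein-coding genes is given for this count, so it is not read as a sign of firm calls. No paired analysis was possible because each mark has 1 library and no result comes from a test. Leaving out a replicate was not possible for the same reason. The lists hold no reads, so how depth limits the detection of a region could not be measured.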
